A study of Mus musculus with 7 samples.

Results

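Long intergenic noncoding RNAs (lincRNAs) are transcripts from genes that lie between protein-coding genes, and active lincRNA promoters carry acetylation of histone H3 at lysine 27 (H3K27ac) as protein-coding promoters do. H3K27ac at lincRNA promoters was followed by chromatin immunoprecipitation and sequencing (ChIP-seq) in mouse embryonic stem cells of the A2Lox line, which carry a doxycycline-inducible transgene for HA-tagged murine NeuroD1, a neurogenic transcription factor of the basic helix-loop-helix (bHLH) family. The cells, kept on inactivated mouse embryonic fibroblasts and moved to gelatin without feeders for the experiment, were collected without doxycycline (0 h) or after 12 h or 48 h with 500 ng/ml of doxycycline, with 2 replicates (R1 and R2) per time point. All 6 libraries thus came from 1 transgenic line, none of them a line without the transgene that received doxycycline, and an effect of doxycycline itself cannot be told apart from one of NeuroD1. A lincRNA promoter peak was defined as a merged H3K27ac peak within 1 kb of a transcript start of the gene type lincRNA in GENCODE M21 but not within 2 kb of any protein-coding transcription start site (TSS). This rule, which used positions only, kept 958 of the 66841 merged peaks, at 742 of the 5854 annotated lincRNA genes.

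Many lincRNAs are made in 1 cell state only. In embryonic stem cells, the pluripotency-associated transcripts (Platr genes) and Lncenc1 accompany the pluripotent state, whereas neural cells make host transcripts of the microRNAs miR-9 and miR-124, which favour neuronal over progenitor gene programmes. NeuroD1 and its partners bind the E-box, CANNTG, and proneural bHLH factors bind CAGATG and CAGCTG in particular. H3K27ac is found at promoters and at active enhancers, and many lincRNA starts lie inside enhancer clusters, so that acetylation over a lincRNA start is not by itself a measure of the transcript.

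The sequences of 9 lincRNA promoter peaks that carried the largest or most contrasting changes are shown first. For peaks that covered the lincRNA start, the 250 bases before and 50 bases from the start are given in the direction of the transcript, and for the Gm15762 and Gm10610 peaks, which lay beside the start, the 300 bases around the peak centre on the plus strand. All coordinates are mm10 (GRCm38), and capitals mark CAGATG, read on either strand (CATCTG), and CAGCTG. The first 3 windows belong to peaks that gained H3K27ac by 48 h (Gm47157 at chr13:34814495-34814794, minus strand; Gm48623 at chr13:54302308-54302607, plus strand; Gm15762 at chr6:147718297-147718596). The next 3 belong to peaks that gained it by 12 h (Gm10610 at chr7:83549201-83549500; Gm44854 at chr7:126836962-126837261, plus strand; 4930431L21Rik at chr3:33871890-33872189, minus strand). The last 3 belong to Gm33035 (chr10:69033839-69034138, minus strand), which had the largest loss from 12 h to 48 h, to the stem cell transcript Lncenc1 (chr13:97434720-97435019, plus strand) and to 2610020F03Rik (chr16:21908728-21909027, minus strand), which lost H3K27ac at 12 h.
Gm47157: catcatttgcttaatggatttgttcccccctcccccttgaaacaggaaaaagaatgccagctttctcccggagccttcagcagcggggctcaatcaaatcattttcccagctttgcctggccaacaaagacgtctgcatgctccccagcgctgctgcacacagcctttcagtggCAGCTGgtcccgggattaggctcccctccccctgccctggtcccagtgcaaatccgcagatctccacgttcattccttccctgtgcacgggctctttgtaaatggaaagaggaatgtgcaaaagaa
Gm48623: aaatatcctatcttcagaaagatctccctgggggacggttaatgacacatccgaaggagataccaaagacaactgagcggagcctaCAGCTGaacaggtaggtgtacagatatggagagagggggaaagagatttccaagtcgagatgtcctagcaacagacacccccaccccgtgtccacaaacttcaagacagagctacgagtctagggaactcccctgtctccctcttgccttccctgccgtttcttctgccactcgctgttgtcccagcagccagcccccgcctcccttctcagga
Gm15762: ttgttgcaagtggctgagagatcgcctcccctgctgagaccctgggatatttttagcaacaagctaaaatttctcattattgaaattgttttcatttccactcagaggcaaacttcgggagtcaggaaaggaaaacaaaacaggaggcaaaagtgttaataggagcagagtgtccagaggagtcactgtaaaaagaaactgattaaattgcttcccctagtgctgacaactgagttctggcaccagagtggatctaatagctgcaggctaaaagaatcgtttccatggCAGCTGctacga
Gm10610: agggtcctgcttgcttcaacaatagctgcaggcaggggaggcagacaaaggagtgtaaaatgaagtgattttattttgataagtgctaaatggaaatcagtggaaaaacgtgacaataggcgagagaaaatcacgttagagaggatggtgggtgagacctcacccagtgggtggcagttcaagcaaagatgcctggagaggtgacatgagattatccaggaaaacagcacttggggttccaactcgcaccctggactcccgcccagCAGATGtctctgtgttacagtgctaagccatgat
Gm44854: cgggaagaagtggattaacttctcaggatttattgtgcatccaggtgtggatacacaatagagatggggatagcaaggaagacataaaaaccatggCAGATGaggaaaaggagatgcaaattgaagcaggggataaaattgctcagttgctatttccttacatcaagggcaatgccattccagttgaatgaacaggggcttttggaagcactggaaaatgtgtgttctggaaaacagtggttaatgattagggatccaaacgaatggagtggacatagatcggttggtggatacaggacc
4930431L21Rik: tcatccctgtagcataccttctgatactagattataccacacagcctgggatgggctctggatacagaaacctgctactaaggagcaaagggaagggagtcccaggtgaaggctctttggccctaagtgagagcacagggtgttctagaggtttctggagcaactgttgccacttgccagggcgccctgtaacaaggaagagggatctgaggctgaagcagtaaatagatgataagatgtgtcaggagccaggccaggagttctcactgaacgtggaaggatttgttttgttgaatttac
Gm33035: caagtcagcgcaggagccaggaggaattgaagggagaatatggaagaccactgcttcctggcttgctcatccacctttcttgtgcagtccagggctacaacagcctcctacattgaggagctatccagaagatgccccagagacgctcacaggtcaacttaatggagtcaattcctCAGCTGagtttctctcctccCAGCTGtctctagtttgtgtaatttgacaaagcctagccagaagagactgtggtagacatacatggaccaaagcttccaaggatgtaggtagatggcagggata
Lncenc1: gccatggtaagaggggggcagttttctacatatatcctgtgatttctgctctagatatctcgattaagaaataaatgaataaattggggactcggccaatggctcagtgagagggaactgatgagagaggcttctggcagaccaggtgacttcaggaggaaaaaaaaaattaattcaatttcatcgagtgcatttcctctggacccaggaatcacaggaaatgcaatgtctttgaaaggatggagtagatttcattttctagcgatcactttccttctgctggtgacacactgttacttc
2610020F03Rik: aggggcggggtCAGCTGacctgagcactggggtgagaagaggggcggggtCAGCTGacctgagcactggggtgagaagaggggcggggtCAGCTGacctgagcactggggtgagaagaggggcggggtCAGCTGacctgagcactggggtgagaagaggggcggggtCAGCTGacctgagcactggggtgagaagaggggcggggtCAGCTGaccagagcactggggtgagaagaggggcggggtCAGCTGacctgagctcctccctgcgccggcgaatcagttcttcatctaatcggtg

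The Gm47157, Gm48623 and Gm15762 windows each held 1 CAGCTG and no CAGATG, and the Gm10610 and Gm44854 windows each held 1 CAGATG. Windows not shown differed from this. Those of Mir124-2hg and 1700065J11Rik, gained by 48 h, each held 1 CAGATG and no CAGCTG, and that of Gm20649, also gained by 48 h, held neither. The Gm11548 window, gained by 12 h, held 1 CAGCTG and no CAGATG. In these windows the motif thus did not separate gains at 12 h from gains at 48 h, and so few picked windows cannot show whether it does elsewhere. The 2610020F03Rik window held 7 CAGCTG at a constant spacing of 39 bases, a tandem repeat up to the start, and reads of such repeats are hard to place. The Gm33035 window, of the largest loss from 12 h to 48 h, held 2 CAGCTG and no CAGATG. Neither motif was found in the windows of 4930431L21Rik and Lncenc1. Over 300-base start windows, CAGATG stood in 17.7% of the 560 windows of lincRNA starts that a peak covered, against 26.0% of 8096 windows of all lincRNA starts and 14.3% of 41422 windows of protein-coding starts. For CAGCTG these shares were 21.4%, 16.8% and 15.5%. The general E-box, CANNTG, which includes both, stood in 74.8%, 80.6% and 68.3% of them. Of the 74 start windows whose peak gained H3K27ac at 12 h vs 0 h, 21.6% held CAGATG and 35.1% CAGCTG. Of the 51 whose peak gained it at 48 h vs 0 h, 27.5% held CAGATG and 27.5% CAGCTG. These matches describe the sequences and are not measured binding sites.

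Some lincRNA genes with a promoter peak host microRNAs. Mir9-3hg and C130071C03Rik hold miR-9 genes of RefSeq (GRCm38.p6) on their own strand (Mir9-3 at chr7:79505264-79505353 and Mir9-2 at chr13:83738814-83738885, both on the plus strand), and both genes give the same mature arms, shown with the seed (bases 2 to 8) in capitals.
miR-9-5p: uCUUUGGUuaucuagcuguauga
miR-9-3p: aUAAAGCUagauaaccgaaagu

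Reads in merged peaks totalled between 6283103 and 8112895 per library, of which between 2.27% and 2.94% lay in lincRNA promoter peaks. All 8 embryonic stem cell markers looked up, among them Pou5f1, Sox2 and Nanog, had promoter peaks at 0 h, and 4 of 6 fibroblast markers (Col1a2, Col3a1, Prrx1 and Thy1) had no promoter peak, while Col1a1 had 15.4 and 17 and Twist1 52.3 and 40.3 scaled counts at 0 h. The 48 h replicates stood apart from each other. In lincRNA promoter peaks, the squared differences between R1 and R2 were 7.15 times those of counting error (chi-square per degree of freedom). This ratio of squares was 1.94 at 0 h and 1.56 at 12 h. Of the reads of the 48 h replicates, 57.4% (R1) and 50.3% (R2) lay in protein-coding promoter peaks, against 52.2% and 53.7% at 0 h and 44.3% in both libraries of 12 h. The labels do not say whether replicates were separate cultures, so the p-values below measure the spread between these libraries, which may be technical. In such bulk samples, fewer cells with the mark and less of the mark per cell cannot be told apart.

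The typical lincRNA promoter peak was weaker than a protein-coding promoter peak and poor in CpG. It held a median of 57.0 reads averaged over the libraries, against 107 in 16416 protein-coding promoter peaks and 23.7 in 49467 peaks near neither kind of start. Its median width was 1058 bp, against 1306 bp and 574 bp. CpG-rich sequence (a GC content of at least 50% and an observed to expected CpG ratio of at least 0.6) was found in 9.08% of lincRNA promoter peaks, 42.1% of protein-coding promoter peaks and 5.01% of the other peaks. At the other end, 70 lincRNA promoter peaks (7.31%) were at least 5 kb wide, against 4.12% and 1.75%. The lincRNA start itself was covered by 560 of the 958 peaks, and 883 lay outside protein-coding gene bodies, with a median distance of 40.3 kb to the nearest protein-coding TSS.

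The 5 strongest lincRNA promoter peaks were broad domains at Gm13056, Gm26887, Gm12974, Bvht and Neat1, a transcript that builds nuclear paraspeckles. The Gm13056 peak (chr4:141272912-141298293) had scaled counts (reads brought to the mean library total) of 4504 and 4668 at 0 h, 5319 and 5187 at 12 h, then 2992 and 3249 at 48 h. Both 48 h libraries thus lay below all the others. At Neat1 the scaled counts ranged from 2560 to 3088 over the 6 libraries, and no comparison was called. Gm26887 and Bvht fell at 48 h vs 0 h by 0.63 ± 0.12 and 0.69 ± 0.14 on the log2 scale (SE, adjusted p = 0.0012 and 0.0013), and Gm13056 by 0.56 ± 0.12 (adjusted p = 0.0025), calls that were all lost without R2 of 0 h.

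Each pair of time points was tested in 1 edgeR quasi-likelihood model of the 6 libraries, scaled by library totals, with Benjamini-Hochberg adjustment over all 66841 peaks. Peaks whose adjusted p fell below 0.05 are termed gained or lost, according to the sign of the log2 fold change. The largest changes given for each comparison are those among called peaks that averaged 20 reads or more and whose libraries did not overlap between the time points.

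At 12 h, gains were the rule among the changes at lincRNA promoters. Of the 958 peaks, 129 gained H3K27ac relative to 0 h, which is 13.5%, where 9.93% of all merged peaks gained it. Losses were called at 28 peaks, 2.92%, where the share of all merged peaks was 6.03%. Protein-coding promoter peaks went the other way, with 2.4% gained and 17% lost, while peaks near neither kind of start, with 12.4% and 2.44%, resembled the lincRNA promoters. Called gains had log2 fold changes between 0.43 and 4.55 and called losses between -1.42 and -0.57, around a median of 0.06 over the 958 peaks and -0.08 over all peaks. Both 12 h libraries lay above both 0 h libraries at 364 lincRNA promoter peaks and below them at 244, where the shares among all peaks were 30.7% and 35.1%. The numbers of gains and losses both fell whichever 0 h or 12 h library was left out, which leaves 1 library in that group. Both rose without either 48 h library. The median over the 958 peaks stayed between 0.04 and 0.12 in these fits. With only the 4 libraries of both time points there were 216 gains and 99 losses, and gains made up 68.6% of the calls instead of 82.2%. With DESeq2 there were 92 gains and 7 losses, a share of 92.9% gains.

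**Figure D1:**
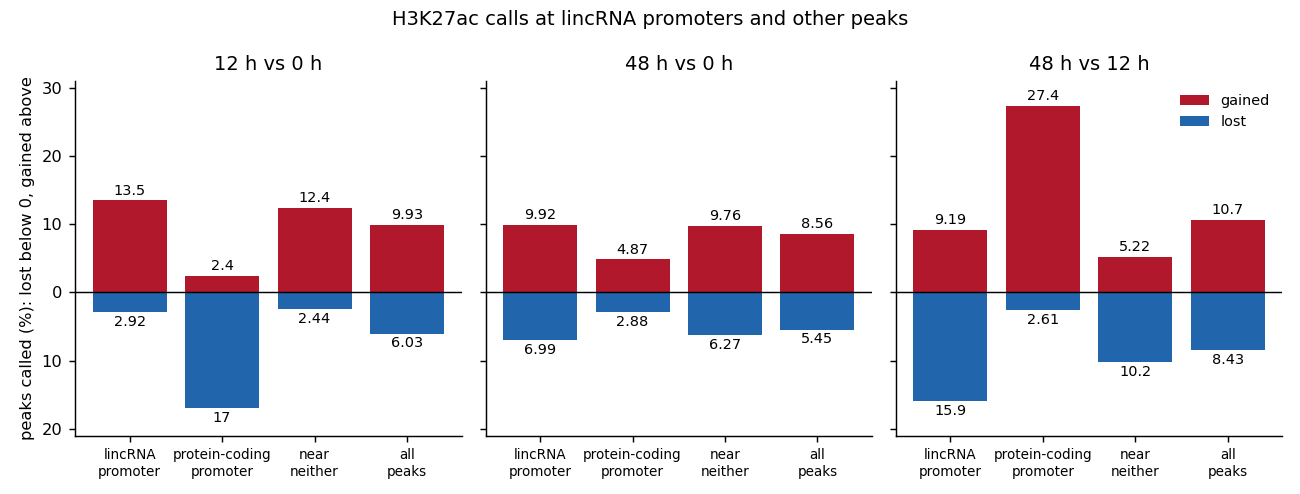
Share of peaks called gained (red, above 0) or lost (blue, below 0) in each comparison, in percent of the peaks of each class: lincRNA promoters (958 peaks), protein-coding promoters (16416), peaks near neither (49467) and all merged peaks (66841). At 12 h vs 0 h lincRNA promoters gained at 13.5% and protein-coding promoters at 2.4%, and from 12 h to 48 h the first lost at 15.9% while the second gained at 27.4%.

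The 4 largest gains at 12 h were at Gm10610, Gm44854, 4930431L21Rik and Gm11548. The Gm10610 peak (chr7:83548816-83549884) had scaled counts of 7.18 and 5.31 at 0 h, 80.4 and 62.6 at 12 h, then 28.9 and 34.4 at 48 h. Its 12 h libraries were the highest, its 48 h libraries lay between, and no time points overlapped. The log2 fold change at 12 h vs 0 h was 3.48 ± 0.39 (SE, adjusted p = 1.2e-06).

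The Gm44854 peak (chr7:126834518-126837762), 4644 bp from the start of the protein-coding 4930451I11Rik, had 41.1 and 13.8 at 0 h, 317 and 282 at 12 h, then 96.6 and 218 at 48 h. The 12 h libraries again were the highest, and the 48 h replicates were far apart. The change at 12 h was 3.43 ± 0.36 (log2, SE, adjusted p = 4.5e-07), whereas the promoter peak of 4930451I11Rik was not called (0.52, adjusted p = 0.16).

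A gain that stayed was seen at 4930431L21Rik (chr3:33871344-33875467), with 77.0 and 67.9 at 0 h, 459 and 445 at 12 h, then 386 and 454 at 48 h. All libraries with doxycycline lay far above both 0 h libraries and overlapped each other. The log2 fold changes relative to 0 h were 2.64 ± 0.20 (12 h) and 2.54 ± 0.20 (48 h) (SE, adjusted p = 8.0e-09 and 8.1e-09). Gm11548 (chr3:36506023-36506990) followed the same course, with 14.4 and 6.37 at 0 h and between 47.8 and 67.6 in the 4 libraries with doxycycline. These 4 gains at 12 h were called under each alternative fit that was run. The highest fitted value, 4.55, belonged to a weaker peak at Gm19757, which had 2.05 and 0 scaled counts at 0 h against 26.8 and 27.6 at 12 h, and at so few reads the fitted size depends on the counts that the model adds.

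The 4 largest losses at 12 h were at Gm44970, 2610020F03Rik, Gm26652 and Gm26635, with log2 fold changes between -1.42 and -1.16. The 2610020F03Rik peak, with the tandem repeat shown above, had a GC content of 52.1%, and the other peaks between 53.3% and 66%. Scaled counts at 2610020F03Rik were 109 and 111 at 0 h, 50.4 and 42.3 at 12 h, then 101 and 99.7 at 48 h. The 12 h libraries alone were low, and the peak was called lost at 12 h vs 0 h (-1.25 ± 0.25, adjusted p = 0.0016) and gained from 12 h to 48 h (1.12 ± 0.25, adjusted p = 0.0043), comparisons that share the 12 h libraries. The calls of all 4 losses ended in between 2 and 6 of the alternative fits.

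**Figure D2:**
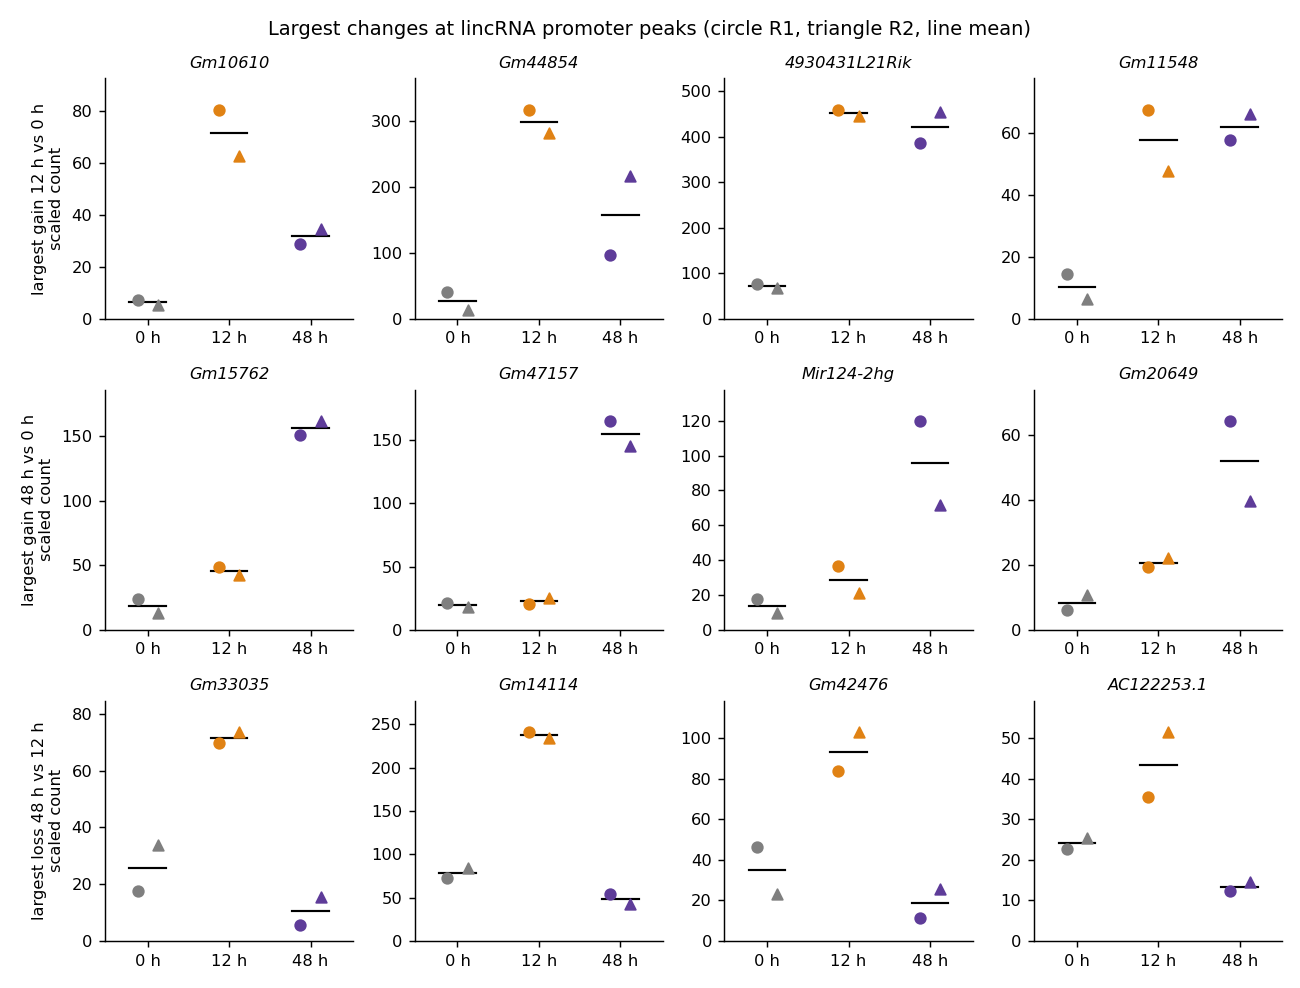
Scaled counts (linear axes from 0) of 12 lincRNA promoter peaks in each library, circles for R1, triangles for R2 and lines for the mean: the 4 largest gains at 12 h vs 0 h (top), the 4 largest gains at 48 h vs 0 h (middle) and the 4 largest losses at 48 h vs 12 h (bottom). The top peaks were highest at 12 h or similarly high at 12 h and 48 h, the middle peaks were highest in both 48 h libraries, and the bottom peaks in both 12 h libraries.

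By 48 h, gains and losses at lincRNA promoters were closer in number. Relative to 0 h, 95 peaks gained H3K27ac (9.92%, where 8.56% of all peaks gained) and 67 lost it (6.99%, where 5.45% of all peaks lost). Peaks near neither kind of start had 9.76% and 6.27%, and protein-coding promoters 4.87% and 2.88%. Both 48 h libraries lay above both 0 h libraries at 271 lincRNA promoter peaks and below them at 273, where the shares among all peaks were 23.9% and 28.7%. Gains made up 58.6% of the calls with library totals, 70.3% with TMM factors, 74.5% with DESeq2 and 68.8% with only the 4 libraries of both time points. Leaving out R1 or R2 of 0 h gave 58 and 31 gains with 18 and 9 losses, leaving out R1 or R2 of 12 h 78 gains each with 33 and 35 losses, and leaving out R1 or R2 of 48 h 145 and 137 gains with 94 and 150 losses, so that without R2 of 48 h losses outnumbered gains.

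The largest gains at 48 h were at Gm15762, Gm47157, Mir124-2hg and Gm20649. The Gm15762 peak (chr6:147717502-147719391), 242575 bp from the nearest protein-coding TSS, had 23.6 and 12.7 scaled counts at 0 h, 48.3 and 42.3 at 12 h, then 151 and 162 at 48 h. It rose at each step without overlap of the libraries, by 3.09 ± 0.30 (log2, SE, adjusted p = 1.5e-07) from 0 h to 48 h and by 1.79 ± 0.26 from 12 h to 48 h (adjusted p = 1.2e-04). The call at 12 h vs 0 h (1.30 ± 0.34, adjusted p = 0.010) was lost without R2 of 0 h or either 12 h library.

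The Gm47157 peak (chr13:34813944-34815601) had 21.6 and 18 at 0 h, 20.4 and 24.8 at 12 h, then reached 165 and 145 at 48 h. The 0 h and 12 h libraries overlapped, and both 48 h libraries stood far above them. Its log2 fold change relative to 0 h was 2.96 ± 0.29 by 48 h (SE, adjusted p = 1.5e-07), whereas that of 12 h, 0.20 ± 0.35, was not called.

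Mir124-2hg is a host transcript of the neuronal microRNA miR-124. Its peak (chr3:17793724-17795127), which covered the start, had 17.5 and 9.55 at 0 h, 36.5 and 21.2 at 12 h, then 120 and 71.4 at 48 h. The 48 h libraries were the highest and differed from each other more than those of 12 h. The change at 48 h vs 0 h was 2.79 ± 0.37 (log2, SE, adjusted p = 1.1e-05). That at 12 h vs 0 h, 1.06 ± 0.43, was not called (adjusted p = 0.088), but it was called with an offset on GC content (1.34, adjusted p = 0.0075).

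Gm20649 lies beside Onecut1, a transcription factor gene of neuronal and liver development. Its first peak (chr9:74846891-74847594) had 6.16 and 10.6 at 0 h, 19.3 and 22.1 at 12 h, then 64.4 and 39.6 at 48 h, a gain of 2.60 ± 0.41 at 48 h vs 0 h (log2, SE, adjusted p = 8.5e-05). The change at 12 h vs 0 h, 1.30 ± 0.46, was not called (adjusted p = 0.054), nor with DESeq2. It was called with TMM factors and with an offset on GC content (1.71, adjusted p = 0.0028). The nearest Onecut1 start lay 14679 bp from the peak centre. The Onecut1 promoter peak had 59.5 and 51.0 at 0 h, 275 and 236 at 12 h, then 299 and 224 at 48 h, and was thus already high at 12 h. It was called relative to 0 h at both times (log2 fold changes of 2.20 and 2.24, adjusted p = 5.9e-07 and 3.5e-07). All 4 of the largest 48 h gains were called in each alternative fit of 48 h vs 0 h.

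The largest losses at 48 h were smaller than the largest gains. Of the 4 largest, 1 was called in each alternative fit, that at Gm45752 (chr8:105970162-105974684), with 460 and 464 at 0 h, 364 and 401 at 12 h, then 153 and 210 at 48 h. Its level went down in both steps without overlap of the libraries, by 1.34 ± 0.19 from 0 h to 48 h (a fall on the log2 scale, SE, adjusted p = 2.3e-05). Gm35040, AC124316.1 and Gm40770 had log2 fold changes between -1.34 and -1.18 and lost their calls in 3 to 8 of the alternative fits. Gm35040 lies just downstream of Mir9-3hg, whose peaks are described with the neural lincRNAs.

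From 12 h to 48 h, losses outnumbered gains. Of the 958 peaks, 152 lost H3K27ac (15.9%, where 8.43% of all peaks lost it) and 88 gained it (9.19%, where 10.7% of all peaks gained it). Protein-coding promoter peaks gained at 27.4% and lost at 2.61%, and peaks near neither kind of start gained at 5.22% and lost at 10.2%. The 48 h libraries lay below both 12 h libraries at 369 lincRNA promoter peaks and above them at 260, where 31.2% and 30.3% of all peaks did. Losses were the majority in each alternative fit, but their number fell to 52 and 44 without R1 or R2 of 12 h and rose to 247 without R2 of 48 h. The gains fell to 23 and 10 without R1 or R2 of 12 h and rose to 164 without R2 of 48 h. As the test of 48 h against 12 h compares the changes at both times since 0 h, these are the peaks whose response differed between the times.

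The largest losses were at peaks that had been highest at 12 h. The Gm14114 peak (chr2:146838832-146840741) had 72.9 and 83.9 at 0 h, 241 and 235 at 12 h, then 54.4 and 43.0 at 48 h. Both 12 h libraries stood far above the others, and the 48 h libraries lay below those of 0 h. It fell by 2.30 ± 0.24 from 12 h to 48 h (log2, SE, adjusted p = 3.3e-06). Gm33035 (chr10:69033708-69034661) had 17.5 and 34 at 0 h, 69.7 and 73.6 at 12 h, then 5.55 and 15.5 at 48 h. Its 48 h libraries were the lowest, and it fell by 2.69 ± 0.39 on the log2 scale from 12 h (adjusted p = 9.6e-05).

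The Gm42476 peak, 3816 bp from the start of Pdgfc, a growth factor gene, fell by 2.29 ± 0.35 on the log2 scale (adjusted p = 1.6e-04), and the Pdgfc promoter peak fell by 1.16 (adjusted p = 0.0014). The largest gains from 12 h to 48 h beside Gm47157 and Gm15762 were at Gm48623 and 1700065J11Rik. The Gm48623 peak (chr13:54302129-54304386) had 217 and 217 at 0 h, 144 and 155 at 12 h, then 690 and 471 at 48 h, so that both 48 h libraries were the highest. It rose by 1.96 ± 0.20 (log2, SE, adjusted p = 3.0e-06) from 12 h to 48 h. The nearest protein-coding gene, at 68092 bp, is Cplx2, a complexin of the synaptic vesicle machinery, and its promoter peak rose from 19.5 and 12.7 to 268 and 130 scaled counts by 48 h, a log2 fold change of 3.60 (adjusted p = 1.7e-07).

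A number of stem cell lincRNA promoters gained H3K27ac at 12 h, and a similar number lost it from 12 h to 48 h. The list held 22 Platr and related genes, 18 of which had lincRNA promoter peaks, 25 peaks in all. At 12 h vs 0 h, 10 peaks of 6 genes gained H3K27ac, and none lost it (also none with DESeq2 and none at an unadjusted p under 0.05). The median log2 fold change was 0.61 against -0.08 over all peaks, of which 9.93% gained it. With an offset on GC content, 8 peaks gained and none lost it, and 3 were lower at an unadjusted p under 0.05. At 48 h vs 12 h, 11 peaks of 9 genes lost it, where 8.43% of all peaks did, with a median of -0.63 against -0.03 over all peaks. None gained it, also none with DESeq2 and none at an unadjusted p under 0.05. These comparisons share the 12 h libraries. At 48 h vs 0 h, 1 peak gained and 3 lost it, where 8.56% and 5.45% of all peaks did, with a median of 0.02.

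The Platr28 peak (chr7:107233763-107242959) had 829 and 722 scaled counts at 0 h, 1770 and 1892 at 12 h, then 577 and 1191 at 48 h. Both 12 h libraries were the highest, and the 48 h libraries lay on either side of those of 0 h. It rose by 1.24 ± 0.21 at 12 h (log2, SE, adjusted p = 2.2e-04, a call lost without R2 of 0 h) and fell by 1.05 ± 0.21 from 12 h to 48 h (adjusted p = 0.0015).

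Lncenc1, a lincRNA of naive pluripotency, had 2 broad peaks, both with a gain at 12 h. The one at chr13:97431050-97440197 went from 1041 and 898 to 1506 and 1667 and back to 968 and 997, with no overlap of the 12 h libraries with the rest. Its log2 fold change at 12 h vs 0 h was 0.71 ± 0.15 (SE, adjusted p = 0.0018), and from there to 48 h it fell by 0.69 ± 0.15 (adjusted p = 0.0025), calls that were lost without R2 of 12 h and, for the first, without R2 of 0 h. Platr30 had 4 peaks, and all of them gained at 12 h, by between 0.80 and 1.32 on the log2 scale.

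Not every stem cell lincRNA rose. Platr6 fell at 48 h vs 0 h by 0.68 ± 0.17 (log2, SE, adjusted p = 0.0084) without a call at 12 h, and Platr2 and Platr22 were the other losses at 48 h, with calls lost in 6 and 9 alternative fits. None of these 3 losses was called without either 0 h library (3 peaks of the list were lower at an unadjusted p under 0.05 in each of these fits). The number of called gains in the list at 12 h fell whichever 0 h or 12 h library was left out, which leaves 1 library in that group. Of the 10 gains at 12 h, 5 were left without R1 of 0 h, 0 without R2 of 0 h (there with 10 at an unadjusted p under 0.05), 3 and 2 without R1 or R2 of 12 h, and there were 17 without either 48 h library. The median stayed between 0.54 and 0.73 in these fits, and was 0.35 with an offset on GC content. Of the 11 losses from 12 h to 48 h, 5 and 2 were left without R1 or R2 of 12 h, and 17 were called without R2 of 48 h. Relative to 0 h the direction at 48 h followed the 48 h library: without R1 there were 8 gains and 3 losses, and without R2 1 gain and 11 losses.

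**Figure D3:**
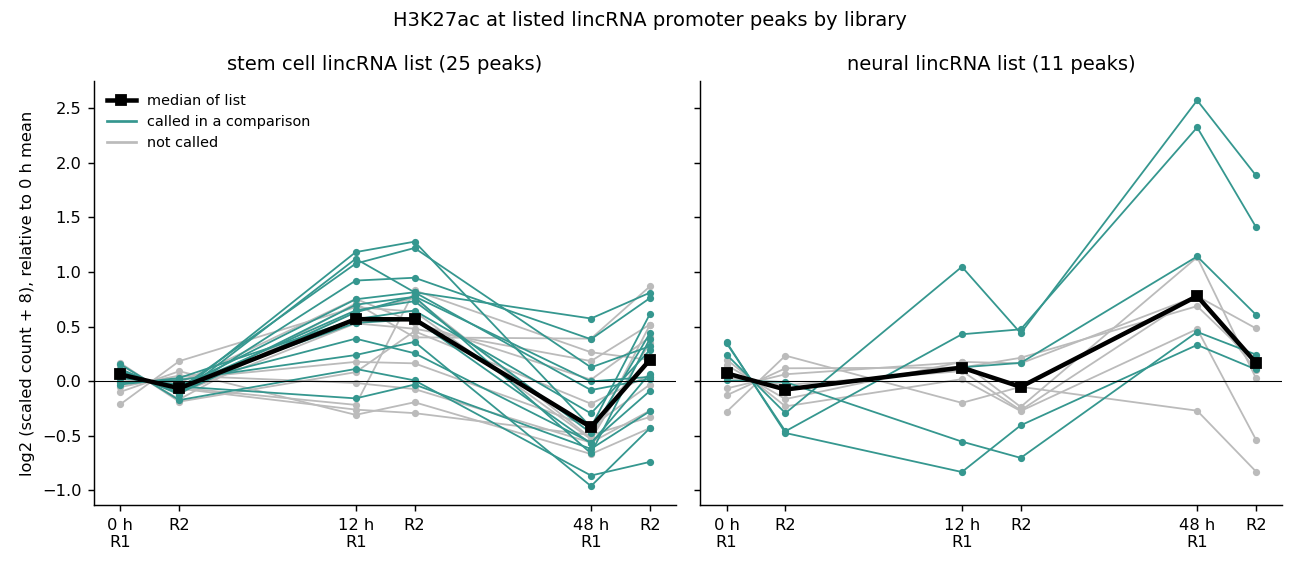
log2 of the scaled count plus 8, relative to the mean of the 0 h libraries, for each peak of the stem cell list (25 peaks, left) and the neural list (11 peaks, right) in each library. Lines join the values of 1 peak, green where it was called in a comparison, and black squares give the median of the list. The stem cell median was 0.57 in both 12 h libraries, -0.42 in R1 and 0.20 in R2 of 48 h, and the neural median was 0.78 and 0.17 in these.

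Most gains called at neural lincRNA promoters were at 48 h. Of 11 genes in the list, 6 had lincRNA promoter peaks, 11 in all. Relative to 0 h, 3 peaks had gained H3K27ac by 48 h, with a median log2 fold change of 0.90 over the list against -0.04 over all peaks, of which 8.56% gained it. Relative to 12 h, 5 had, with a median of 0.82 against -0.03 over all peaks, of which 10.7% gained it. At 12 h vs 0 h only 1 peak was called, a loss at Meg3 that was lost under 6 alternatives. With an offset on GC content, that loss and a gain at Mir124-2hg were called at 12 h. At 48 h, R1 was above R2 at each of the 11 peaks, and without R1, 2 peaks gained and 2 lost H3K27ac at 48 h vs 0 h with a median of 0.25, while without R2, 7 gained. Without R2 of 12 h, 1 of the 5 gains from 12 h to 48 h was called.

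The 3 peaks gained at 48 h were at host genes of miR-124 and miR-9: Mir124-2hg, described above, Mir124a-1hg and Mir9-3hg. The Mir9-3 hairpin (chr7:79505264-79505353) lies upstream of both Mir9-3hg peaks and of their nearest starts. Transcripts from these starts would thus not hold miR-9. Both hosts with several peaks were split. At Mir9-3hg, the peak at chr7:79524988-79526982, 868 bp from an internal start, had 43.1 and 21.2 at 0 h, 46.1 and 47.8 at 12 h, then 193 and 98.9 at 48 h, with both 48 h libraries above all others. It rose by 2.16 ± 0.33 at 48 h vs 0 h (log2, SE, adjusted p = 6.4e-05). The GC-rich peak upstream at chr7:79515173-79515946, which covered a start, had 45.2 and 67.9 at 0 h and 45.5 and 28.4 at 48 h (-0.63 ± 0.31, adjusted p = 0.19), so that the libraries there overlapped. Without R1 of 48 h this peak was called lost.

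At Mir124a-1hg, the peak over the first start (chr14:64586620-64588051) had 50.3 and 44.6 at 0 h against 114 and 76.5 at 48 h (log2 fold change 1.00 ± 0.27, adjusted p = 0.016), a call lost without either 0 h library or R1 of 48 h. The next peak of the gene, with 291 and 214 at 0 h and 355 and 172 at 48 h, had overlapping libraries and was not called (0.05 ± 0.25, adjusted p = 0.93). It was called lost without R1 of 48 h and gained without R2. For the Mir9-2 host C130071C03Rik, 2 weak peaks averaged fewer than 10 reads, and neither was called. A stronger peak within 1 kb of its start (chr13:83730223-83731734), nearest to the start of Gm26803, was not called either. It had 113 and 107 at 0 h, 118 and 90 at 12 h, then 197 and 119 at 48 h (0.51 ± 0.25 at 48 h vs 0 h, adjusted p = 0.19). With an offset on GC content it was called gained at 48 h vs 0 h (0.70, adjusted p = 0.0048). Meg3, an imprinted transcript that is abundant in neurons, had 2 peaks. The peak over the start (chr12:109540971-109542992) had 186 and 184 at 0 h, 123 and 110 at 12 h, then 255 and 220 at 48 h. Its 48 h libraries were the highest and its 12 h libraries the lowest, and it rose by 1.02 ± 0.21 from 12 h to 48 h (log2, SE, adjusted p = 0.0017), a call lost without R2 of 12 h. The peak just upstream (chr12:109539466-109540928) had 101 and 53.1 at 0 h, 39.7 and 56.1 at 12 h, then 98.8 and 83.4 at 48 h, with overlap of 0 h with both other times. It rose by 0.91 ± 0.30 from 12 h to 48 h (adjusted p = 0.033), a call lost with DESeq2 or without either 12 h library.

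Few host genes of small RNAs beyond the neural microRNAs were called. The list of 14 such genes, which includes the miR-124 and miR-9 hosts, had 14 peaks at 10 genes. At 12 h vs 0 h none was called (none with DESeq2, and 1 higher and 1 lower at an unadjusted p under 0.05 with edgeR). Other fits did call some: 1 gain with the replicate number as a block, and 1 gain and 1 loss with only the 4 compared libraries. An offset on GC content gave 1 gain, and 3 gains with the block added. By 48 h the 3 gains were the neural hosts, and 1 peak lost H3K27ac, that of Snhg20 (-0.46 ± 0.14, adjusted p = 0.032), a call lost in 8 alternative fits, where 8.56% of all peaks gained and 5.45% lost it. Without R1 of 48 h there were 2 gains and 4 losses, and without R2 6 gains and 1 loss. Mir17hg, which carries a cluster of growth-promoting microRNAs, had 472 and 363 at 0 h and 550 and 366 at 48 h, with overlapping libraries.

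Among nuclear, X-linked, imprinted and growth-control lincRNAs (9 of 12 genes with peaks, 19 peaks), 2 peaks lost H3K27ac at 12 h (Meg3, which is in both lists, and 2900097C17Rik), 1 gained it by 48 h relative to 0 h, and 3 gained and 2 lost it from 12 h to 48 h. The shares of all peaks were 6.03% lost at 12 h, 8.56% gained by 48 h, and 10.7% gained and 8.43% lost from 12 h to 48 h. Neither loss at 12 h was called with TMM factors, with DESeq2 or without any 1 of the 0 h and 12 h libraries (2 or 3 peaks were lower at an unadjusted p under 0.05 in these fits), and of the 3 gains after 12 h, 1 and 0 were called without R1 or R2 of 12 h (2 and 3 higher at an unadjusted p under 0.05). The broad peak of Malat1, an abundant nuclear transcript, ranged from 2598 to 2816 over the 6 libraries. The gain at 48 h was at Ftx, a gene of the X-inactivation centre, with 199 and 142 at 0 h, 159 and 182 at 12 h, then 273 and 278 at 48 h. Both 48 h libraries lay above the others, and the change was 0.69 ± 0.21 at 48 h vs 0 h (log2, SE, adjusted p = 0.025), a call lost in 4 alternative fits. Both losses from 12 h to 48 h were at Pvt1, the lincRNA beside Myc, by 0.73 ± 0.19 and 0.91 ± 0.26 on the log2 scale, calls lost without either 12 h library.

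Many broad domains rose at 12 h or fell after it. Of the 70 lincRNA promoter peaks of at least 5 kb, 25 gained and 1 lost H3K27ac at 12 h vs 0 h (35.7% gained, where 28.1% of all 1614 peaks of that width did), and 43 lost and 1 gained it from 12 h to 48 h (61.4% lost, where 36.1% of all such peaks did). Peaks of that width near neither kind of start had 42.4% gained at 12 h and 49.1% lost after it, and protein-coding promoter peaks of that width 9.01% and 16.7%. Of the 61 broad peaks outside the stem cell list, 19 gained at 12 h and 35 lost from 12 h to 48 h. Of the 25 gains among the 70, 7 and 5 were left without R1 or R2 of 0 h and 11 and 6 without R1 or R2 of 12 h, and 41 were called without either 48 h library. Of the 43 losses, 20 and 15 were left without R1 or R2 of 12 h.

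CpG-rich lincRNA promoters mostly took the opposite course where they were called. Of 87 such peaks, 2 gained and 11 lost H3K27ac at 12 h vs 0 h, with a median log2 fold change of -0.42, where 9.93% of all peaks gained and 6.03% lost it. From 12 h to 48 h 18 gained and 2 lost it, with a median of 0.42, where 10.7% of all peaks and 39.4% of CpG-rich protein-coding promoter peaks gained it. The 11 losses were 3 with DESeq2, 1 without R1 of 0 h, 0 without R2 of 0 h or either 12 h library (with between 9 and 16 lower at an unadjusted p under 0.05) and 33 without either 48 h library. The 18 gains were 11 with DESeq2, 9 without either 0 h library or R1 of 48 h, 5 and 2 without R1 or R2 of 12 h and 49 without R2 of 48 h. CpG-rich protein-coding promoter peaks, of which 0.362% gained and 26.9% lost it at 12 h, had a median of -0.51. CpG-rich peaks near neither kind of start, of which 0.565% gained and 11.9% lost it at 12 h, had a median of -0.43. From 12 h to 48 h, 4.6% of the latter gained it, with a median of 0.02. The change at 12 h went with GC content in each class. In lincRNA promoter peaks the median log2 fold change was 0.94 in the bin around 38% GC (21 peaks), 0.22 around 46%, -0.10 around 54% and -0.42 around 62% (42 peaks). With a GC offset fitted per library, these medians were 0.43, 0.05, 0.06 and -0.04, and the CpG-rich lincRNA promoters had 3 gains, 4 losses and a median of -0.08. Over all lincRNA promoter peaks the offset left 123 gains and 37 losses at 12 h. Whether the trend with GC content arose in the cells or in the libraries was not tested.

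**Figure D4:**
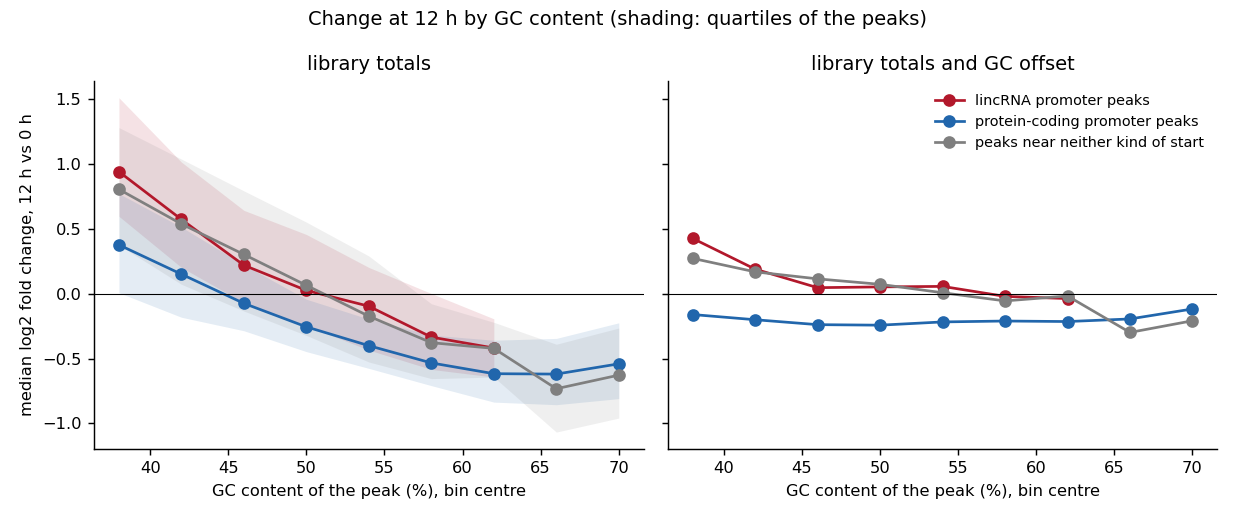
Median log2 fold change at 12 h vs 0 h by GC content of the peak (bins 4% wide with at least 20 peaks), for lincRNA promoter peaks (red), protein-coding promoter peaks (blue) and peaks near neither kind of start (grey), with library totals (left, shading from the first to the third quartile of the peaks) and with a GC offset added (right). The lincRNA promoter medians went from 0.94 to -0.42 on the left and from 0.43 to -0.04 on the right, and protein-coding promoters lay below them in each bin.

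Other features varied with the calls as well. Peaks that covered the lincRNA start gained H3K27ac at 12 h in 74 of 560 cases and lost it in 27, and peaks beside the start gained it in 55 of 398 cases and lost it in 1. Of all merged peaks, 9.93% gained and 6.03% lost it. The peaks beside the start were weaker, with a median of 21.7 reads against 114. With distance from the nearest protein-coding TSS, gains at 12 h went from 9.52% of 147 peaks within 10 kb to 19.5% of 87 peaks beyond 200 kb, and gains at 48 h vs 0 h from 6.12% to 14.9%. The share of all merged peaks gained at 48 h was 8.56%, and all merged peaks were not split by distance. With the GC offset, 16 of the 147 and 13 of the 87 gained at 12 h, and the median log2 fold change beyond 200 kb was 0.12 instead of 0.26. Peaks with no CAGATG within 250 bp of the centre gained H3K27ac at 48 h vs 0 h in 8.70% of 678 cases, those with 1 in 11.7% of 231 and those with 2 or more in 18.4% of 49. Over all merged peaks these shares were 7.00%, 11.3% and 16.7%. For CAGCTG they were 8.91%, 11.2% and 17.5% of lincRNA promoter peaks, and 7.87%, 10.3% and 12.4% of all merged peaks.

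Calls at several peaks of 1 lincRNA gene can be compared only where more than 1 of them was called. Of 175 genes with more than 1 lincRNA promoter peak, 38 had gains and no losses at 12 h vs 0 h, 5 had losses and no gains, and none had both (1 gene had both from 12 h to 48 h). At 12 h vs 0 h, 18 of the 38 genes had more than 1 gained peak, and none of the 5 had more than 1 lost peak. A gene with only 1 called peak cannot have both directions, and the number expected for unrelated peaks was not worked out. Whether the peaks of a gene changed together was thus not tested. Peaks of 1 gene share a locus and are not independent.

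The nearest protein-coding promoter followed the lincRNA promoter only loosely. For 756 lincRNA promoter peaks, the nearest protein-coding gene had a promoter peak of its own, 487 such peaks in all. Across these pairs, the log2 fold changes had a Pearson's r of 0.27 (12 h vs 0 h), 0.32 (48 h vs 0 h) or 0.23 (48 h vs 12 h), and Spearman's rho was 0.23, 0.27 and 0.22. All pairs come from the same 6 libraries and some share a protein-coding peak, so these values are descriptive. By 48 h relative to 0 h, 67 of the gained lincRNA promoter peaks had such a partner, of which 13 gained and 2 lost H3K27ac, where 4.87% of all protein-coding promoter peaks gained and 2.88% lost it, with a median log2 fold change of 0.29 against 0.06 over all pairs. At 12 h vs 0 h, 93 had a partner, of which 4 gained and 7 lost it (2.4% and 17% of all protein-coding promoter peaks), with a median of -0.18 against -0.34. From 12 h to 48 h, where 27.4% of protein-coding promoter peaks gained and 2.61% lost it, 34 of the 66 partners of gained lincRNA promoter peaks gained it, and of the 117 partners of lost ones 30 gained and 8 lost it. Partners of lost lincRNA promoter peaks were 20 at 12 h (1 of them lost) and 54 by 48 h vs 0 h (2 gained and 7 lost).

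**Figure D5:**
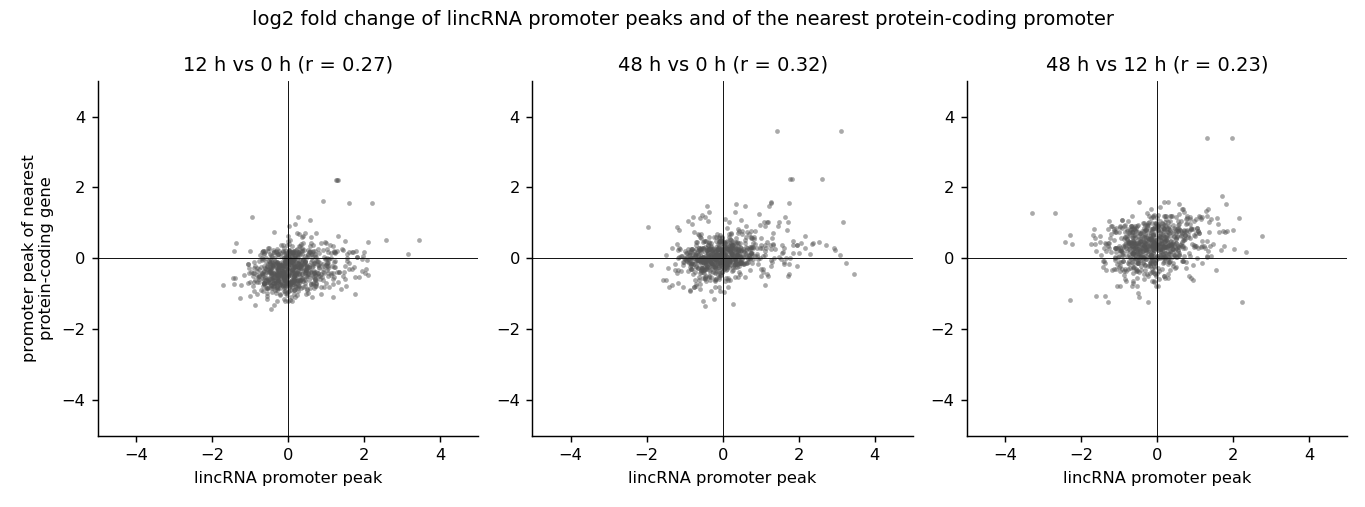
log2 fold change of 756 lincRNA promoter peaks (x axis) and of the strongest promoter peak of the nearest protein-coding gene (y axis) in each comparison, with Pearson's r in the titles. At 48 h vs 0 h the points highest on the y axis, at 3.60, belong to Cplx2 beside Gm48623 and Gm48622, and at 12 h vs 0 h most protein-coding partners lay below 0.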

How the data were processed

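H3K27ac ChIP-seq counts of 6 libraries of A2Lox-NeuroD1 mouse embryonic stem cells were used, 2 at each of 0 h, 12 h and 48 h of induction, grouped by their labels. The Input library was not used here. The authors used Bowtie2 (local alignment, mm10), SAMtools 0.1.19 and MACS2 (Input as control), merged peaks over all samples, and deposited raw read counts per merged peak, made with QuasR and not normalised. The file's further columns are peak positions.

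The counts of all 66841 peaks were fitted with glmQLFit and tested with glmQLFTest of edgeR 4.0.16 (R 4.3.3), with library totals for scaling and Benjamini-Hochberg adjustment (threshold 0.05). The model had 3 residual degrees of freedom. Tested on simulated counts with 2-fold changes, it recovered 76 of 200 changed peaks with 3 false calls at 48 h vs 0 h. The simulation changed 200 of 66841 peaks and gave all libraries the same spread. In the data many more peaks were called, and the 48 h replicates differed more than the others. The recovery in the simulation is thus not the share of such changes found in these data, which was not measured. Alternatives were TMM factors, DESeq2 1.42.0, a filter of 10 reads in 2 libraries, the replicate number as a block, the 4 compared libraries alone, a lowess offset on GC content (span 0.3), each library left out, and other definitions of the members. With 1 library left out, the lone library is assumed to vary like the others.

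LincRNA starts came from the full GENCODE M21 set and protein-coding TSSs from its basic set, from transcripts typed protein-coding. The named peaks were the 4 largest gains and losses per comparison among called peaks that averaged 20 reads or more and whose libraries did not overlap, the 5 strongest peaks, and those of the listed genes. The weaker peaks Gm48622 and Gm19757 were named after their values were seen. The members, the lists and the tests were chosen with earlier results of these data known. Sequences and positions were handled with Python 3.11.15, pandas 2.3.3, scipy 1.17.1 and pysam 0.24.0, and figures with matplotlib 3.10.9. Each peak's name is that of the lincRNA with the nearest start.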

Additional observations from a re-analysis of the deposited data

Results flagged for a closer look

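The response to induction differed between 12 h and 48 h at a number of lincRNA promoter peaks by the direct test of 48 h against 12 h (edgeR, Benjamini-Hochberg adjustment), with 88 peaks higher at 48 h and 152 lower. The shares of all merged peaks called in these directions were 10.7% and 8.43%.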

How the results depend on the processing

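The counts of called lincRNA promoter peaks moved with the libraries used. Leaving out 1 library at a time gave between 23 and 220 gains and between 0 and 98 losses at 12 h vs 0 h (none called without R2 of 0 h, 47 lower at an unadjusted p under 0.05), between 31 and 145 gains and between 9 and 150 losses at 48 h vs 0 h, and from 12 h to 48 h between 10 and 164 gains and between 44 and 247 losses. Such fits have fewer residual degrees of freedom, yet at 12 h vs 0 h more peaks were called without either 48 h library than with all libraries. The 4 compared libraries alone gave 216 gains and 99 losses at 12 h vs 0 h, with 35 losses at 48 h vs 0 h. DESeq2 gave 7 losses at 12 h vs 0 h, 24 losses at 48 h vs 0 h, and 57 gains and 97 losses at 48 h vs 12 h. TMM factors gave 17 losses at 12 h vs 0 h. The GC offset gave 103 losses at 48 h vs 0 h, with 133 gains from 12 h to 48 h, and with the replicate block added 112 and 136. Counting only peaks that cover a start, which are fewer, gave 74 gains at 12 h vs 0 h, 51 gains at 48 h vs 0 h and 100 losses from 12 h to 48 h. Unless stated, the cause was not tested.

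The labels do not say whether the replicate numbers pair the samples. Deviations of same-numbered libraries had correlations of -0.04, -0.05 and 0.08 between time points. Counting error made up much of the spread at 0 h and 12 h (chi-square per degree of freedom 1.94 and 1.56), so these values cannot show whether they do. The replicate block gave 133 gains and 30 losses at 12 h vs 0 h, 96 gains and 69 losses at 48 h vs 0 h, then 89 and 152 from 12 h to 48 h.

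Of 3387 values of the 87 named peaks under these alternatives, 2890 kept their direction and call, 208 lost and 160 gained a call, 123 changed sign without being called in either fit, and 6 that were not called with all libraries were called with the other sign in an alternative fit. Leaving out 1 library at a time, the log2 fold changes of these 6 at 48 h vs 0 h ranged from -0.48 to 0.44 at Platr7, -0.30 to 0.29 at Lncenc1, -0.43 to 0.62 at Platr28, -0.66 to 0.39 at Platr10, -0.56 to 0.49 at Mir124a-1hg and -1.07 to 0.68 at Gm44970, with the ends of each range from the fits without R1 or R2 of 48 h. Of the 958 peaks, 715 averaged at least 20 reads, and small changes at the weaker peaks could not be detected at this depth.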
